A study of Mus musculus with 3 samples.

Results

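The interleukin-1 and interleukin-6 cytokines and their close relatives were followed here as 9 genes, of 29298 genes in the union of the files: the agonists Il1a and Il1b, the receptor antagonist Il1rn, the decoy receptor Il1r2, the related cytokine Il18, the interleukin-6 family cytokines Il6 and Osm, and the counterparts Il10 and Tnf. The genes were taken by name, and all 9 were found. They were measured in 25640 leukocyte-selected cells with at least 200 genes, of 25762 in all. The cells came from mouse hearts infarcted by permanent ligation and taken at several times. The mice were F7fl/fl CX3CR1Cre or F7fl/fl WT, so that both genotypes carry the floxed allele of coagulation factor VII. CX3CR1Cre is driven from a promoter active in monocytes and macrophages. Cells were selected on CD45 microbeads and tagged by biological replicate before 3 pools were sequenced on the BD Rhapsody platform. These 3 libraries, replicates 1 to 3 of 1 group, held 7, 5 and 6 sample tags. Genotype and time per tag are not given in the labels or headers, so they were not compared, and each test of a difference set cells of 1 tag against other cells of the same tag. The headers of library 1 give its run the name F7_d3. Whether d3 is a time of that whole pool is not stated there, and it was not used.

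Interleukin-1 alpha and beta act through the same receptor. Interleukin-1 beta is made as a precursor that inflammasome-activated caspase-1 cuts, as it does interleukin-18, while interleukin-1 alpha is active as a precursor and can be released by dying cells. The receptor antagonist occupies the receptor without signalling, and the type 2 receptor binds interleukin-1 without signalling. Interleukin-6 and oncostatin M signal through receptors that share gp130, tumour necrosis factor is an early inflammatory cytokine of the infarct, and interleukin-10 restrains macrophage cytokine production. In infarcted hearts neutrophils and monocytes enter first and macrophages later clear dead tissue and guide the scar.

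Il1a (ENSMUSG00000027399) lies on the minus strand of chromosome 2 at 129299610 to 129309972 and Il1b (ENSMUSG00000027398) on the same strand at 129364570 to 129371139 (GRCm38, GENCODE M21). Il1rn (ENSMUSG00000026981) lies on the plus strand of chromosome 2 at 24336853 to 24351494, and Il1r2 (ENSMUSG00000026073) on chromosome 1 at 40074079 to 40125231. Il6 (ENSMUSG00000025746) spans 30013114 to 30019981 on chromosome 5, and Tnf (ENSMUSG00000024401) 35199381 to 35202007 on the minus strand of chromosome 17. The values count molecules over each whole gene and do not tell its transcripts apart.

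The stretches just upstream of 4 members are shown because Il1a and Il6 moved together in macrophages below. Il1b, the neighbour of Il1a, moved apart from them along the macrophage splits by MHC class II and by resident genes. Along Arg1, however, Il1b was called higher as they were, and over tags its macrophage level also followed theirs. Along resident genes none of these members was called without the tag as a block. Each is the 250 bases before the RefSeq start site (GRCm38.p6), read 5′ to 3′ on the gene's strand, with motif matches in capitals. Il1a is chr2:129309973-129310222 (minus strand), Il1b chr2:129371140-129371389 (minus), Il6 chr5:30012864-30013113 (plus) and Tnf chr17:35202008-35202257 (minus).
Il1a: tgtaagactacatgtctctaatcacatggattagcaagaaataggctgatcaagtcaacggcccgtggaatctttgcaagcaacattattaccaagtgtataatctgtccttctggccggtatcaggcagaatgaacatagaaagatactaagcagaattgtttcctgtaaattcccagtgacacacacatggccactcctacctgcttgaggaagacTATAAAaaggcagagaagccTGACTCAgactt
Il1b: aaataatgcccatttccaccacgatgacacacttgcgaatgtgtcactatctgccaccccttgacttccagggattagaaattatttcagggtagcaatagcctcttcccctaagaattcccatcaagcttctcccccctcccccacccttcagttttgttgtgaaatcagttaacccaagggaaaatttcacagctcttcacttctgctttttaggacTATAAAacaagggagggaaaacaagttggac
Il6: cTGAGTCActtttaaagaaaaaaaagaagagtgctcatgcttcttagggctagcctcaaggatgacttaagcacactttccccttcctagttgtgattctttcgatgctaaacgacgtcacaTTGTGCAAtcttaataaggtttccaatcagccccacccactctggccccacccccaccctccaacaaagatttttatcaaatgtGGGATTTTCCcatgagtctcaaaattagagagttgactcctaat
Tnf: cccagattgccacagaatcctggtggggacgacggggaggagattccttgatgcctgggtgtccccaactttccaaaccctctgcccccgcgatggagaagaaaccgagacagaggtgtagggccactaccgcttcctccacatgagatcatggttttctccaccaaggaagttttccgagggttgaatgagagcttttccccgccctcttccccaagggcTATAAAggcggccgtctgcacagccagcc
Both strands were searched for 4 motifs: the NF-kB consensus by its name, AP-1 (TGANTCA, the same on both strands), C/EBP (TTNNGCAA) and the TATA box (TATAAA). The Il6 stretch held an NF-kB consensus match, GGGATTTTCC, starting 44 bases before the start, a C/EBP match 128 bases before it and an AP-1 match 249 bases before it. The Il1a stretch held an AP-1 match 12 bases and a TATA box 32 bases before the start. AP-1 also matched 141 bases before start site 1 of Il1rn, whose stretches are not shown, while its start sites 2 and 3 held no match. Il1b and Tnf each held a TATA box, 31 and 29 bases before the start. Of 32851 stretches of the same length, 7.25% held the NF-kB consensus, 6.75% AP-1, 9.56% C/EBP and 12.4% the TATA box. These are matches of letters and not measured binding.

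Cells were sorted into 7 classes by fixed rules, of which the first met was kept: T cells (2 or more molecules of Cd3e, Cd3d and Cd3g), B cells (2 or more of Cd79a), neutrophils (S100a8 and S100a9 at 1% of molecules or more, with Csf3r), fibroblasts (Col1a1, Col3a1 and Dcn at 0.5%), macrophages (C1qa, C1qb and C1qc at 0.1%), dendritic cells (DC, with Flt3) and monocytes (2 or more of Ly6c2). Macrophages were 14977 cells (58.41%), monocytes 2422, DC 1362, T cells 1225, B cells 779, neutrophils 488 and fibroblasts 415, and 3972 cells (15.49%) met no rule. Markers that the rules did not use had their highest median in the labelled class for 5 of 5 T, B, neutrophil and fibroblast markers each, 6 of 6 DC markers, 5 of 6 macrophage markers and 4 of 5 monocyte markers. The T and B classes were not clean: 52.6% of T and 52.1% of B cells met a further rule, and 43.8% and 50.3% met that of macrophages. The libraries held 349827525, 88848415 and 93681505 molecules (deduplicated counts), from 10136595 to 62344127 per tag. Cell indices shared by libraries numbered 4, 3 and 0 for the 3 pairs of libraries, and 0 between tags of 1 library. Levels are in CPM, the molecules of a gene scaled to a common total for each class and tag, for classes with at least 20 cells in it.

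Il1b, Il1rn and Il1r2 were all highest in neutrophils. Il1b, the secreted agonist, was at 3960, 7430 and 10100 CPM in neutrophils (lowest, median and highest of 9 tags) and at 945, 2150 and 3460 CPM in monocytes (10 tags), and these ranges did not overlap. DC followed at 1010, 1850 and 2640 CPM (16 tags), above monocytes in 5 and below them in 5 of the 10 tags with both. Macrophages held 397, 671 and 1600 CPM (18 tags), overlapping T cells at 340, 565 and 1310 CPM and above them in 11 of 18 tags. Fibroblasts were lowest, at 5.68, 81.4 and 207 CPM (9 tags).

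Il1rn, the receptor antagonist, was at 1020, 1720 and 5410 CPM in neutrophils and 244, 408 and 759 CPM in monocytes, again without overlap. Macrophages held 160, 230 and 373 CPM and DC 21.6, 130 and 262 CPM. Il1r2, the decoy receptor, was at 3320, 4040 and 5400 CPM in neutrophils and 440, 907 and 1960 CPM in DC, and no tag of either reached the range of the other. Macrophages, at 26.8, 50 and 80.0 CPM, lay below every monocyte value (83.8, 130 and 351 CPM). Only fibroblasts, at 5.35, 17.2 and 46.1 CPM, had a lower Il1r2 median than macrophages among the 7 classes.

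Il1a did not follow Il1b. Macrophages had the highest median, at 48.9, 196 and 987 CPM, and neutrophils, of which 2 of 9 tags lay below that range, were at 11.6, 176 and 705 CPM. Monocytes held 40.0, 111 and 673 CPM, and DC 0, 27.3 and 114 CPM. In the order of medians (macrophage, neutrophil, B, monocyte, T, DC and fibroblast) all neighbours overlapped. Monocytes lay above T cells in 10 of 10 tags with both.

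Il6 was the 1 member with its highest median in fibroblasts, at 29.5, 185 and 327 CPM. Macrophages held 9.63, 49.9 and 391 CPM, monocytes 7.42, 36.3 and 294 CPM, and neutrophils 0, 0 and 9.76 CPM with 5 of 9 tags at 0. Osm, its relative, was instead at its highest median in monocytes, at 73.2, 268 and 376 CPM, then in macrophages at 138, 186 and 300 CPM and in neutrophils at 117, 182 and 357 CPM, which overlapped. Il10 was highest in macrophages, at 30.3, 73.3 and 179 CPM, against 0, 51.9 and 81.8 CPM in monocytes and 0, 5.69 and 16.7 CPM in neutrophils. Tnf was highest in neutrophils, at 325, 577 and 1220 CPM, and next in macrophages, at 134, 250 and 615 CPM. Il18 had medians from 47.3 CPM in monocytes, and 30.5 in macrophages, down to 6.95 in fibroblasts, and all neighbours in the order of its medians overlapped.

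**Figure D1:**
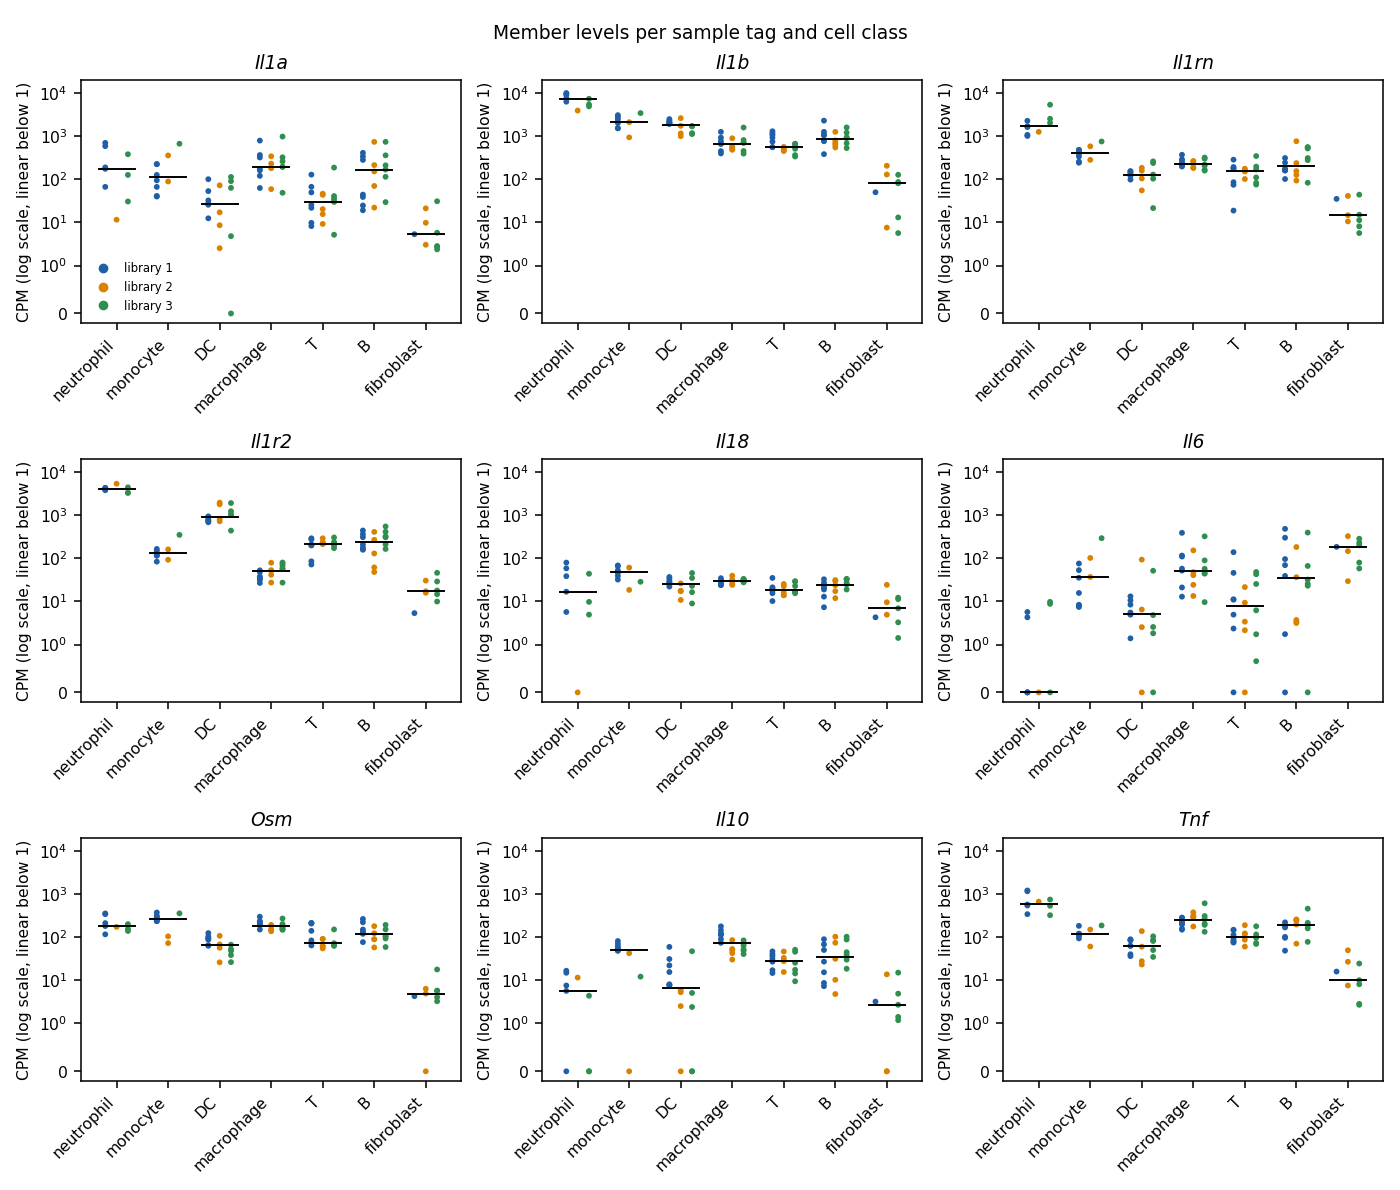
Level of each member (y axis, CPM on a log scale that is linear below 1) in each class (x axis), 1 point per sample tag coloured by library, with the median as a bar. Neutrophils stand above all other classes for Il1b, Il1rn and Il1r2, and fibroblasts have the highest Il6 median, 185 CPM.

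Shares of cells were compared after every cell was thinned to 2000 molecules, since median depth ran from 3997 molecules in neutrophils to 26512 in fibroblasts. Il1b was then found in 95.5% of neutrophils (97.1% unthinned), 72.4% of DC (86.6%), 67.6% of monocytes (83.1%) and 35.7% of macrophages (59.1%). Fibroblasts, taken as a reference for background, had 6.36% (exact 95% interval 4.19 to 9.18, and 29.2% unthinned). Of the fibroblasts 11.1% also met the macrophage rule, and whether any express Il1b was not tested. Cells that met the T rule alone had 25.7% (39.6% unthinned, median depth 8330). Il1r2 was found in 94.2% of neutrophils, 49.2% of DC, 15.3% of monocytes and 6.04% of macrophages, against 3.42% of fibroblasts (1.88 to 5.68) and 16.5% of cells that met the T rule alone (13.6 to 19.8). Unthinned, these were 97.5%, 71.4%, 37.3%, 21.6%, 31.8% and 26.9%. Thinned Il1r2 shares of monocytes and macrophages were above that of fibroblasts but no higher than that of cells meeting the T rule alone. Whether the latter cells express Il1r2 themselves was not tested, so these shares do not settle expression in monocytes or macrophages. Il6 was found in 18.8% of fibroblasts (45.8% unthinned) and 5.42% of macrophages (11.6%). The Il6 shares of neutrophils (0.825%) and DC (1.26%) were near that of cells meeting the T rule alone (1.04%, 0.384 to 2.26) and are read as background, as was the Il10 share of neutrophils (1.44%) against 0.733% of fibroblasts (0.152 to 2.13). Unthinned, these were 2.05%, 5.51% and 3.1% for Il6 and 2.46% and 6.75% for Il10. Left out as shallower were 3 neutrophils, 9 DC, 3 monocytes, 154 macrophages, 6 fibroblasts and 6 of the T cells. Intervals cover counting error only.

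The members differed in how few macrophages carried them. The 1% of macrophages with most molecules of the gene held a median of 63.1% of all Il6 molecules over 18 tags (15.3 to 85.3%), 39.3% for Il1r2 (28.9 to 51.4%) and 33.7% for Il1a (12.1 to 58.9%). The same share was 15.3% for Il1b (8.42 to 23.2%), 10.6% for Osm (7.01 to 15.9%) and 10% for Il18 (8.59 to 12.5%). Il6 in macrophages was thus held by few cells and Osm by many. This share also depends on how many molecules a tag held.

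Between macrophages and monocytes all 9 members were called in the test within tags (edgeR's quasi-likelihood test, adjusted over 12810 genes, 10 tags), but the calls of Il1a, Il6 and Osm were lost in several alternatives. Called higher in macrophages were 4 members, against 31.0% of all genes tested, and called lower were 5, against 28.6%. Il1b was lower in macrophages by a log2 difference of -1.64 (SE 0.15, adjusted p = 1.87e-07, in 10 of 10 tags), and Il1r2 of -1.77 (SE 0.11, adjusted p = 3.29e-09, 10 of 10). Il1rn at -0.71 (SE 0.13) and Il18 at -0.85 (SE 0.14) were lower in 9 of 10. Il10 was higher by 0.93 (SE 0.11, 10 of 10) and Tnf by 0.8 (SE 0.16, 9 of 10). Il1a was at 0.75 (SE 0.29), Il6 at 1.12 (SE 0.4) and Osm at -0.36 (SE 0.14). Without library 1, which gave 7 of the 10 tags, these 3 were at -0.16, -0.83 and 0.24, none called, and Il18 at -0.25 was not called, while Il10 was at 1.67. Without the tag as a block the 3 were at 0.62, 1.07 and -0.41, again not called. Osm was also not called without library 3 (-0.29), with DESeq2 (-0.29) or with no filter on low counts (-0.23), with adjusted p from 0.0899 to 0.153 in these 3. Il1a (0.55) and Il6 (0.79) were not called without the 3 tags that stood apart in several members, tag 10 of library 1, tag 1 of library 2 and tag 7 of library 3, an alternative chosen after the data were seen. The median log2 difference was -0.36 over the 9 members and 0.01 over all genes.

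Against neutrophils, macrophages held less of the 3 interleukin-1 genes of the Il1b balance and more Il6 and Il10 (9 tags, 12520 genes). Il1r2 differed by a log2 of -6.26 (SE 0.18, adjusted p = 2.61e-28), Il1b by -3.06 (SE 0.17, adjusted p = 7.13e-19) and Il1rn by -2.78 (SE 0.17, adjusted p = 7.73e-18), each in 9 of 9 tags without overlap. Tnf was lower by -1.17 (SE 0.21) in 8 of 9 tags. Il10 was higher by 3.96 (SE 0.35). Il6 was higher by a fitted 5.68 (SE 0.42), no bound since 5 of 9 neutrophil tags were at 0, and the other fits put it at 5 (without the 3 tags that stood apart) to 6.54 (sums of at least 50 cells). Il1a (0.61, SE 0.31), Il18 (0.08) and Osm (0.16) were not called, and without library 1 Il1a was called at 1.88. Members called higher were 2, against 42.0% of all genes, and called lower 4, against 17.6%. All genes lay at a median of 0.66 in this comparison (0.5 with DESeq2), so Il18 and Osm lay below the median gene and Il1a near it. With sums of at least 50 cells, Tnf was at -1.92 and Il1a at -0.31, not called. Members had a median of 0.08.

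Against DC, 7 members were called higher in macrophages (34.3% of all genes) and 2 lower (25.7%), over 16 tags and 13617 genes. The 2 lower were Il1b at a log2 of -1.31 (SE 0.13, adjusted p = 6.82e-09) and Il1r2 at -4.27 (SE 0.15, adjusted p = 1.29e-17), each in 16 of 16 tags. Il6 was higher by 3.11 (SE 0.29), Il10 by 2.79 (SE 0.28), Il1a by 2.7 (SE 0.26), Tnf by 1.96 (SE 0.17), Osm by 1.52 (SE 0.11) and Il1rn by 0.97 (SE 0.12). The agonists Il1a and Il1b thus lay on opposite sides of this comparison. Without library 1 the Il6 difference was 2.10, and Il18, at 0.3 (SE 0.12), was not called in 6 of its alternatives, among them those without library 2 or library 3. Members had a median of 1.52 and all genes of 0.08.

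Against T cells, 7 members were called higher in macrophages (33.2% of all genes) and 1 lower (29.0%), over 18 tags and 13502 genes. Il1a was higher by a log2 of 2.85 (SE 0.25), Il6 by 2.39 (SE 0.28), Il10 by 1.54 (SE 0.17), Tnf by 1.4 (SE 0.088) and Osm by 1.16 (SE 0.12). Il1r2 was lower by -1.99 (SE 0.13, adjusted p = 9.25e-13) in 18 of 18 tags. Il1b (0.24, SE 0.12) was not called, though it was called without library 1 at 0.41. Without cells that met more than 1 rule the differences of the called members were wider. They were 3.75 for Il1a, 4.21 for Il6, 2.96 for Il10, 2.62 for Tnf and 2.36 for Osm. Il1rn and Il18 were at 1.55 each (0.9 and 0.73 with these cells), and Il1r2 at -2.53. The Il1b difference did not widen in this way, at 0.25, and was again not called. Members had a median of 1.16 and all genes of 0.03.

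Against fibroblasts, 8 members were called higher in macrophages (34.3% of all genes) and 1 lower (32.6%), over 9 tags and 13536 genes. Il1a was higher by a log2 of 5.17 (SE 0.29), Osm by 4.99 (SE 0.25), Tnf by 4.38 (SE 0.25), Il10 by 4.01, Il1rn by 3.92, Il1b by 3.68, Il18 by 1.94 and Il1r2 by 1.57. Without library 3, which gave 5 of the 9 tags, Il1a was at 4.36 and Tnf at 3.60, and without library 2 Il1a was at 5.81. Il1r2 was at 0.97 without the macrophages that held a dendritic cell marker (described with the MHC class II split). Il6 was lower in macrophages by -1.41 (SE 0.39, adjusted p = 0.00478) in 7 of 9 tags, and not called without the tag as a block (-1.07, adjusted p = 0.0892). Fibroblasts had passed CD45 selection, and only 415 were found. Members had a median of 3.92 and all genes of 0.04.

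Neutrophils and monocytes could be compared in 6 tags (6135 genes), 5 of them in library 1. Neutrophils were higher in 5 members (25.5% of all genes) and lower in 2 (28.6%). Il1r2 was higher by a log2 of 4.93 (SE 0.24), Tnf by 2.59 (SE 0.28), Il1rn by 2.43 (SE 0.21), Il1b by 1.88 (SE 0.18) and Il1a by 1.13 (SE 0.29). Il6 (-4.68, SE 0.66) and Il10 (-2.55, SE 0.44) were lower, the first with 4 of the 6 neutrophil tags at 0, so its fitted size is no bound. It was at -3.67 without library 3 and at -5.85 without the 3 tags that stood apart. Without the tag as a block Il1a was at 1.08 and not called, and Il6 and Il10 did not pass the filter on low counts. Il18 and Osm were not called. Members had a median of 1.13 and all genes of -0.12.

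**Figure D2:**
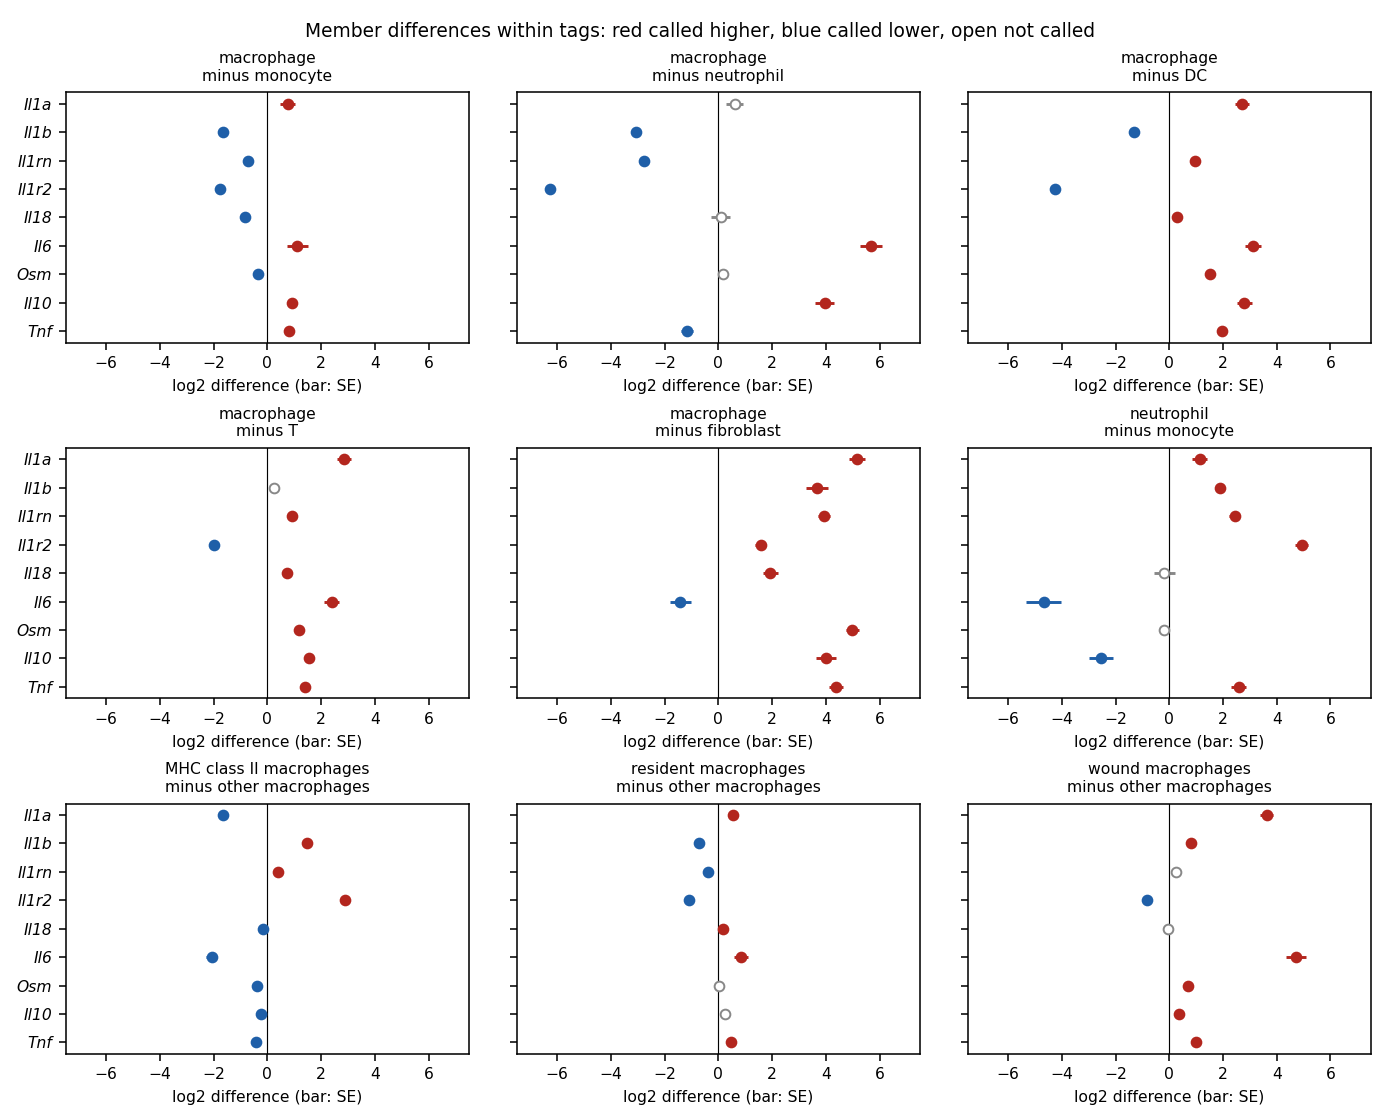
Log2 difference of each member (x axis, bar: SE) in the 9 comparisons within tags, 1 panel per comparison, filled where called. Il1b and Il1r2 are both lower in macrophages than in monocytes, neutrophils and DC, and among macrophages both are higher in cells rich in MHC class II, where Il1a and Il6 are lower.

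The balance of agonist to antagonist was read as the ratio of Il1b to Il1rn or to Il1r2 molecules in a tag, with 0.5 added to both, and compared only between classes. Il1b to Il1rn was 4.49, 14.7 and 50.9 in DC (lowest, median and highest of 16 tags), 3.18, 4.54 and 12 in monocytes, 0.918, 3.87 and 9.79 in neutrophils and 1.87, 2.66 and 5.29 in macrophages. DC had the highest ratio, above macrophages in 16 of 16 tags. The mean log2 difference of macrophages from DC was -2.343 (SD 0.702, n = 16, adjusted p = 0.000122, exact two-sided sign-flip permutation test over tags, adjusted over 8 comparisons). Macrophages lay below monocytes by -0.9 (SD 0.682) in 9 of 10 tags, with an adjusted exact p = 0.0117. Without library 1 this was -0.341 over 3 tags, a number that cannot reach the threshold. Macrophages and neutrophils differed by -0.273 (SD 1.177, n = 9, exact adjusted p = 0.521), with medians of -0.802 in library 1 and 1.296 in library 3, of opposite sign.

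Il1b to Il1r2 put the classes in another order. The shares above did not settle whether macrophages and monocytes express Il1r2, so the part of background molecules in their ratios is not known. It was 7.37, 14.3 and 24.7 in macrophages and 9.81, 16.0 and 22.3 in monocytes, but 0.617, 2.0 and 2.85 in DC and 0.734, 1.67 and 2.64 in neutrophils, so that the ranges of the first 2 classes did not meet those of the last 2. Macrophages exceeded DC by a mean log2 of 2.952 (SD 0.633, n = 16, exact adjusted p = 0.000122, 16 of 16 tags) and neutrophils by 3.208 (SD 0.47, n = 9, exact adjusted p = 0.0104, 9 of 9). Macrophages and monocytes differed by 0.114 (SD 0.545, n = 10, exact adjusted p = 0.521). Neutrophils lay below monocytes by -3.025 (SD 0.286, n = 6) in 6 of 6 tags, where the smallest exact p of 0.0312 gave an adjusted p of 0.05 and was not called. Library medians for macrophages less neutrophils were 3.402, 3.715 and 2.898.

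**Figure D3:**
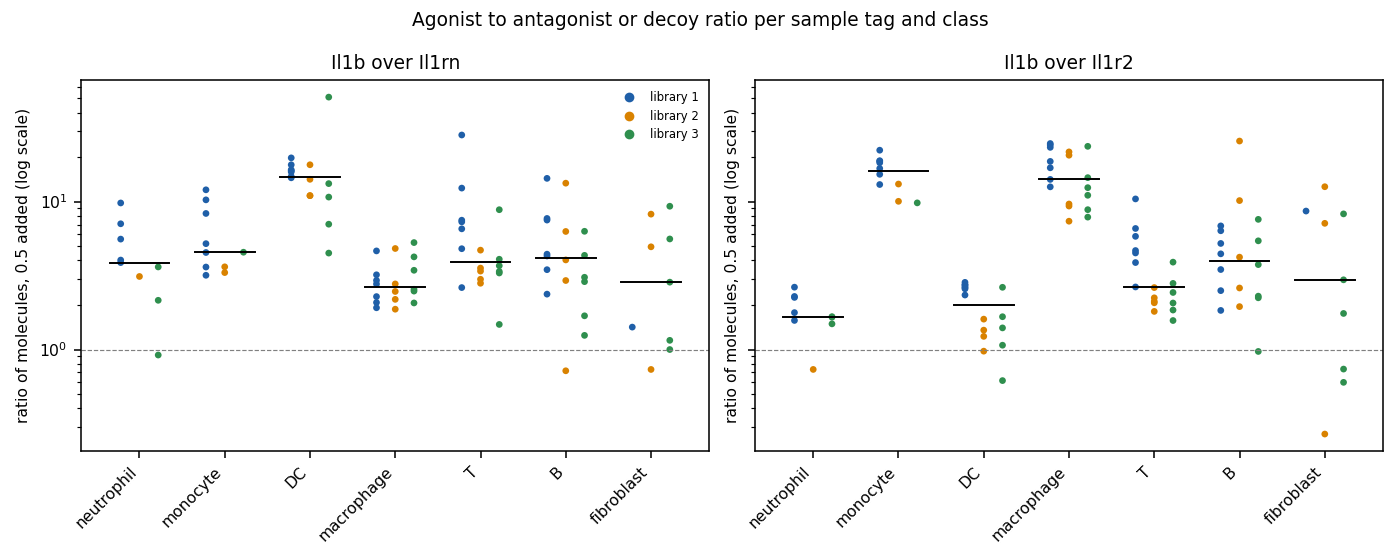
Ratio of Il1b to Il1rn (left) and to Il1r2 (right) molecules per tag (y axis, log scale, 0.5 added) by class, coloured by library, with the median as a bar and a dashed line at 1. DC are highest on the left at a median of 14.7 and low on the right at 2.0, while macrophages are lowest on the left at 2.66 and near the top on the right at 14.3.

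Single cells were also counted by whether they held both genes of a ratio. These shares were not tested against those that each gene alone would give. Where nearly all cells hold each gene, as for Il1b and Il1r2 in neutrophils, most must hold both. After thinning, 90.3% of neutrophils held both Il1b and Il1r2 molecules and 5.15% held Il1b without Il1r2. In DC these were 41.8% and 30.6%, and in macrophages 4.08% and 31.7%. For Il1rn, 70.3% of neutrophils held both, against 10.1% of DC and 10.4% of macrophages. DC with Il1b and no Il1rn were 62.3%.

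Within macrophages, members were compared between the macrophages of each tag above its 75th percentile of a marker set and the rest of that tag. The 3 sets were MHC class II genes (H2-Aa, H2-Ab1, H2-Eb1 and Cd74), resident genes (Lyve1, Folr2 and Cbr2) and Arg1, the arginase of wound macrophages. Each richest group had 3746 cells and each rest 11231. A group cut from such a level is a range and not a type: 295, 686 and 411 cells lay within 10% of the cut, and 5006 macrophages held no molecule of the resident genes and 6223 none of Arg1. The cut differed between tags, from 0.0366 to 3.15% of a cell's molecules for MHC class II and 0.0159 to 0.0846% for resident genes. For Arg1 it ran from 0.00496 to 0.706%. Rich therefore means high for the tag and not the same level in every tag.

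Macrophages rich in MHC class II had more Il1b and Il1r2 and less Il1a and Il6. Il1b was at 868, 1350 and 1940 CPM (lowest, median and highest of 18 tags) against 217, 443 and 1580 CPM in the rest, and higher in 18 of 18 tags by a log2 of 1.46 (SE 0.12, edgeR adjusted p = 3.09e-10). Il1r2 was at 75.4, 140 and 380 CPM against 9.52, 20.6 and 48.5 CPM without overlap, higher by 2.88 (SE 0.16, edgeR adjusted p = 3.62e-13). Il1a was at 16.0, 59.2 and 528 CPM against 56.2, 235 and 1150 CPM, lower in 18 of 18 tags by -1.66 (SE 0.17, edgeR adjusted p = 8.93e-09). Il6, at 1.41, 7.35 and 242 CPM against 11.4, 58.7 and 430 CPM, was lower in 18 of 18 tags by -2.07 (SE 0.2, edgeR adjusted p = 3.15e-09). The 2 interleukin-1 agonists thus moved in opposite directions in every tag. Il1rn was higher by 0.41, while Tnf (-0.41), Osm (-0.39), Il10 (-0.25) and Il18 (-0.18) were lower. Members called higher were 3, against 25.0% of 12967 genes, and called lower 6, against 26.2%. Without library 1, Il1a was at -2.30 and Il6 at -3.20, and with a cut at the median Il6 was at -1.43. Il10 and Il18 were not called without library 2 (-0.17 and -0.14), nor Il18 without library 3 (-0.15), nor either with a cut at the median (-0.07 and -0.04). Il10 was also not called without the tag as a block (-0.2).

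Markers of DC, monocytes, B cells and macrophages themselves moved with this split. The summed level of 6 DC markers was 147, 323 and 472 CPM in the richest group and 23.0, 60.1 and 131 CPM in the rest, against 723 to 1470 CPM in the DC class. That of 5 monocyte markers was 831, 1280 and 2050 CPM against 193, 454 and 1030 CPM, and 3490 to 7360 CPM in the monocyte class. That of 5 B markers was 52.7, 152 and 266 CPM against 9.68, 44.2 and 132 CPM. The 6 macrophage markers summed to a median of 9430 CPM against 11300 CPM in the rest and were higher in 1 of 18 tags. T markers (203 against 176 CPM) were higher in 13, fibroblast markers (34.5 against 33.1 CPM) in 14 and neutrophil markers (325 against 285 CPM) in 10. Of the DC, monocyte and B lists no marker had a median of 0 in macrophages. Without the 1053 macrophages (7.0%) that held a molecule of a DC marker other than Itgax, an alternative chosen after the data were seen, Il1r2 was higher by 1.99, Il1b by 1.34, and Il10 at -0.09 was not called. The part of the other cell types in the result was not tested. Median depth was 15272 molecules in the richest group and 22930 in the rest.

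Macrophages rich in Arg1 had more Il6 and Il1a in every tag. Il6 was at 13.2, 168 and 1230 CPM against 1.67, 3.45 and 106 CPM, higher in 18 of 18 tags by a log2 of 4.73 (SE 0.37, edgeR adjusted p = 1.92e-09). Il1a was at 132, 628 and 2240 CPM against 15.9, 33.7 and 439 CPM, higher in 18 of 18 tags by 3.62 (SE 0.25, edgeR adjusted p = 4.51e-10). Tnf at 1.0 (SE 0.12) and Osm at 0.71 (SE 0.079) were higher in 18 of 18 tags as well, and Il1b at 0.8 (SE 0.13) in 16. Il1r2 was lower by -0.83 (SE 0.2) in 15 of 18. Il10 (0.36) was called higher, but not without library 1 (0.42), library 3 (0.18), the block (0.47) or the 3 tags that stood apart (0.27). Il1rn (0.23, adjusted p = 0.0526) and Il18 (-0.04) were not called, but Il1rn was called in 6 alternatives, at 0.24 to 0.36. Members called higher were 6, against 21.1% of 13242 genes, and called lower 1, against 23.2%. Without library 1 Il6 was at 4.09, without the 3 tags that stood apart at 5.32, and without the block at 3.87. With a cut at the median of Arg1, Il1b was at 0.32 and not called. Neutrophil markers moved with this split, at a summed 247, 603 and 1670 CPM for 5 markers against 77.0, 188 and 503 CPM, with 7280 to 14600 CPM in the neutrophil class, and were higher in 18 of 18 tags. DC markers (49.6 against 133 CPM, medians) and B markers (13.8 against 87.6 CPM) were higher in 0 of 18 tags. Macrophage markers (7830 against 13200 CPM) were higher in 1, fibroblast markers (29.3 against 34.1 CPM) in 2, T markers (108 against 197 CPM) in 4 and monocyte markers (582 against 576 CPM) in 5. The part of these cell types in the result was not tested. Median depth was 25322.5 molecules in the richest group and 19315 in the rest.

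Macrophages rich in resident genes differed less. Il1r2 was lower by a log2 of -1.09 (SE 0.18) in 16 of 18 tags, Il1b by -0.71 (SE 0.13) in 15 and Il1rn by -0.37 (SE 0.054) in 17. Il6 (0.84, SE 0.27), Il1a (0.56, SE 0.17), Tnf (0.47, SE 0.098) and Il18 (0.19) were called higher, in 14, 13, 14 and 15 of 18 tags. None of these 4, nor Il1b, was called without the tag as a block. Il6 was not called without library 1 (0.84) or library 2 (0.82), Il18 not without library 1 (0.09) and Il1a not without library 3 (0.38). Members called higher were 4, against 13.7% of 13227 genes, and called lower 3, against 13.2%. Osm (0.02) and Il10 (0.23) were not called, though Il10 was with a cut at the median (0.38) and without the 2% of cells with most molecules (0.29). Markers of DC were at a summed 42.2 CPM (median) against 137 in the rest, those of monocytes at 387 against 663 and T markers at 120 against 201, each lower in 18 of 18 tags. B markers (35.9 against 78.2 CPM) were higher in 1 of 18 tags, fibroblast markers in 5, neutrophil markers (321 against 311 CPM) in 7 and macrophage markers (10800 against 11200 CPM) in 10. The part of these cell types was not tested. Median depth was 25979.5 molecules against 19244. In both sets of richest cells were 1300 macrophages for resident genes and Arg1, 372 for MHC class II and Arg1, and 322 for MHC class II and resident genes. Members had a median of -0.25, 0.19 and 0.71 for MHC class II, resident genes and Arg1, and all genes of -0.01, 0 and -0.04.

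**Figure D4:**
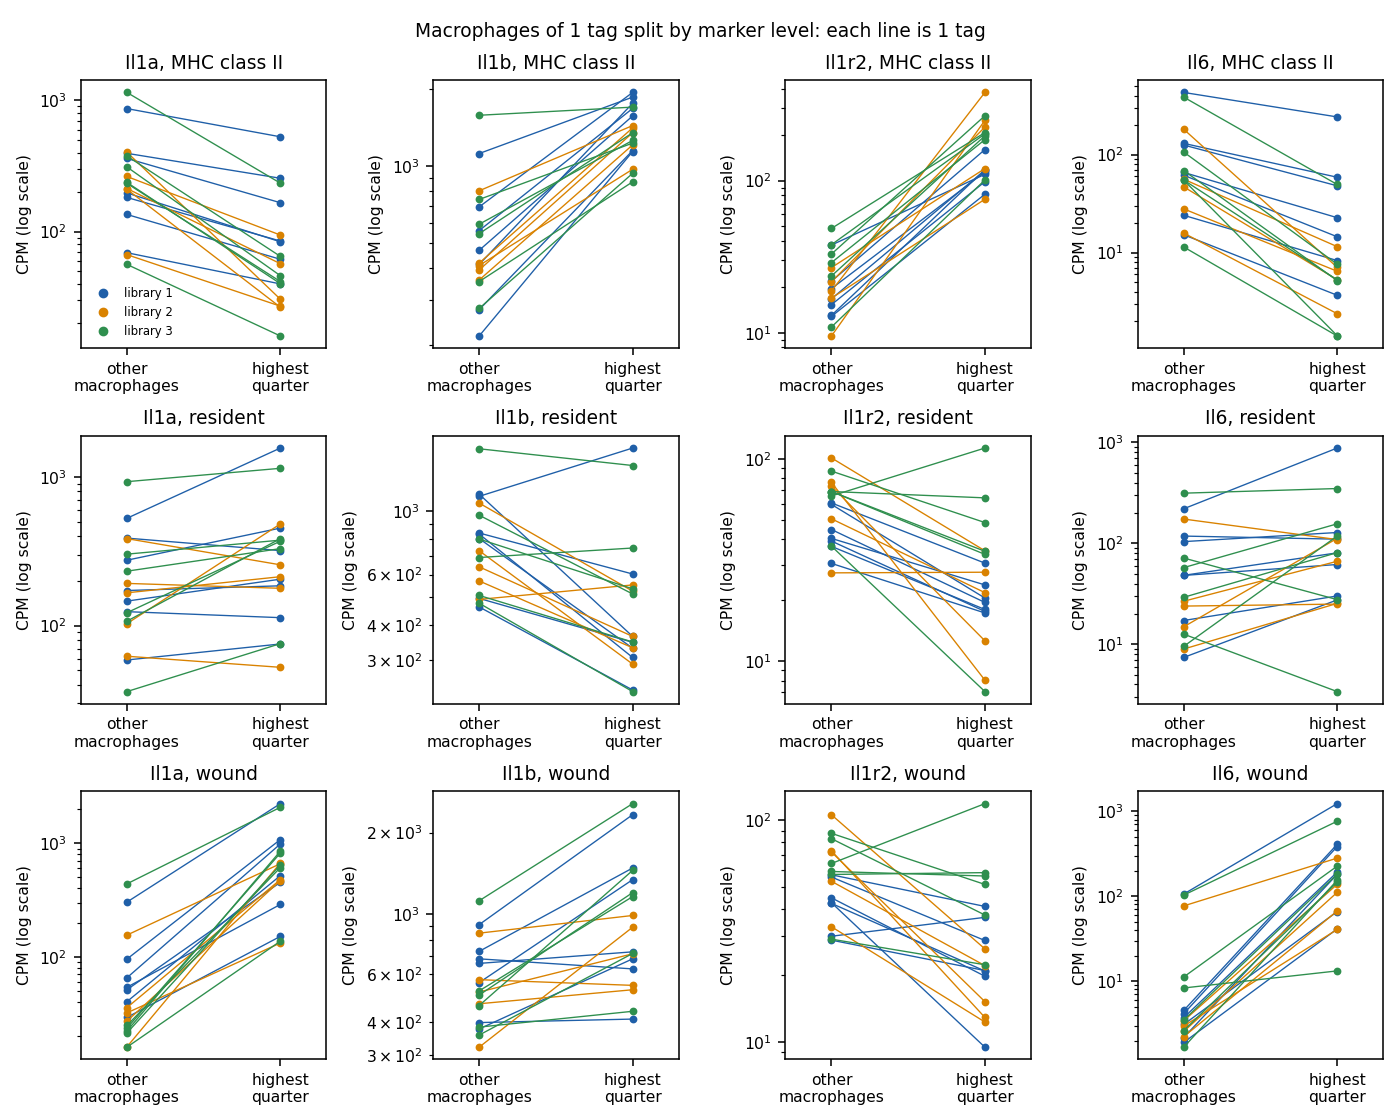
Level of Il1a, Il1b, Il1r2 and Il6 (y axis, CPM, log scale) in macrophages above the 75th percentile of a marker set and the other macrophages of the same tag, for MHC class II (top), resident genes (middle) and Arg1 (bottom), with 1 line per tag coloured by library. Along MHC class II every Il1b and Il1r2 line rises and every Il1a and Il6 line falls, and along Arg1 every Il1a and Il6 line rises.

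Over the 18 tags, macrophage levels of Il1a and Il6 followed each other. Il6 ranged from 9.63 to 391 CPM and Il1a from 48.9 to 987 CPM, and tag 10 of library 1 and tag 7 of library 3 were the 2 highest for both. On log2 CPM the Pearson r was 0.97 and the Spearman rho 0.91 (permutation p = 2e-05 each, the smallest that the permutations can give, adjusted p = 0.00036 each over 36 pairs of members). Without the 2 tags farthest from the median of Il1a, r was 0.95. It was 0.99 within library 1 (n = 7, exact p = 0.0004) and 1.0 within library 3 (n = 6, exact p = 0.00278), and library 2 had too few tags. Il1a and Il1b had an r of 0.86 and a rho of 0.87 (permutation p = 2e-05 each, adjusted p = 0.00036 each), 0.73 without the 2 farthest tags, and 0.92 within each of libraries 1 and 3 (exact p = 0.00556 and 0.00278). Il1b and Il6 had an r of 0.86 and a rho of 0.84 (permutation p = 4e-05 and 6e-05, adjusted p = 0.00036 and 0.00072). Their r was 0.75 without the 2 farthest tags, and 0.86 and 0.93 within libraries 1 and 3 (exact p = 0.0179 and 0.00278). Il6 and Osm had an r of 0.83 and a rho of 0.8 (permutation p = 4e-05 and 0.00012, adjusted p = 0.00036 and 0.00108), 0.69 without the 2 farthest tags, and 0.97 and 0.85 within libraries 1 and 3 (exact p = 0.0004 and 0.0361). The tags may differ in time and genotype, which the labels do not give per tag. It is likewise not stated whether the 7 tags of library 1, run F7_d3, share 1 time, so these relations can be among tags of the same or of different times.

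**Figure D5:**
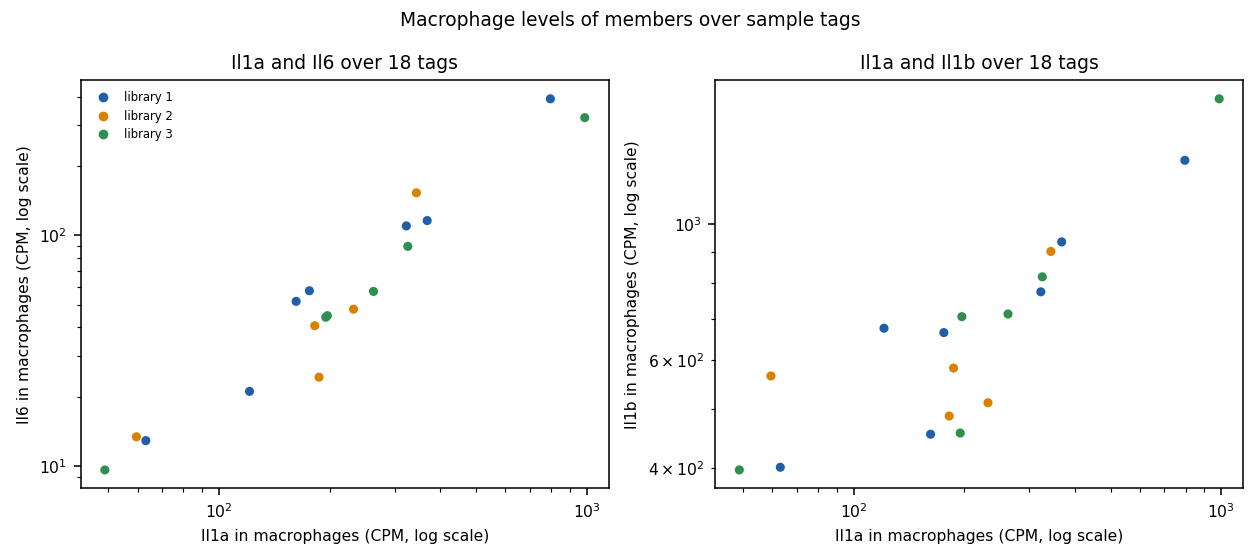
Macrophage level of Il6 (left) and Il1b (right) against Il1a, all in CPM on log scales, 1 point per tag coloured by library. Il6 and Il1a rise together over all 18 tags, with an r of 0.97.

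Genes most alike to each member over 98 sums of class and tag were named by Pearson's r of log2(CPM + 5) among 12195 genes. This is a description, since sums of 1 tag share its library. Fgr (0.93), Pim1 (0.92) and Nlrp3 (0.92), the sensor of the inflammasome, were most alike to Il1b. Cxcl3 (0.78), Itgam (0.75) and Cxcl2 (0.74) were most alike to Il1a, and Ackr3 (0.77), Fn1 (0.76) and Lif (0.72), an interleukin-6 family cytokine, to Il6. Ifitm1 (0.95) led for Il1r2, Msrb1 (0.9) for Il1rn, Tmem189 (0.91) for Osm, Ccrl2 (0.88) for Tnf, C3ar1 (0.81) for Il10 and Ifi207 (0.69) for Il18. The most alike members were Tnf for Il1a (0.7) and Il1rn for Il1b (0.78).

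Other genes of these pathways were followed in 6 lists with 84 genes in the files. Each count is set beside the share of all genes called in that direction. Of 18 genes of NF-kB and its post-transcriptional control, 13 were lower (28.6% of all genes) and 2 higher (31.0%) in macrophages than in monocytes, with a median log2 of -0.41 against 0.01 over all genes. Against neutrophils 15 were lower (17.6%) and 2 higher (42.0%), with a median of -1.15 against 0.66 over all genes. In neutrophils 16 were higher (25.5%) and 0 lower (28.6%) than in monocytes, with a median of 0.89 against -0.12. In macrophages rich in MHC class II, 15 of the 18 were higher (25.0%) and 1 lower (26.2%), with a median of 0.44 against -0.01, led by Tnip3 (log2 1.99, SE 0.099), an inhibitor of NF-kB signalling. In those rich in resident genes 1 was higher (13.7%) and 9 lower (13.2%), and in those rich in Arg1 8 were higher (21.1%) and 3 lower (23.2%), among the latter Atf3 (-0.91, SE 0.11), a stress-induced repressor of cytokine genes.

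Of 12 inflammasome and caspase genes, 12 were higher in macrophages than in fibroblasts (34.3% of all genes), and 10 higher (33.2%) and 1 lower (29.0%) than in T cells. Against monocytes 3 were higher (31.0%) and 7 lower (28.6%), and against neutrophils 6 were higher (42.0%) and 4 lower (17.6%). The 3 and the 6 higher are near the shares over all genes. Mefv, which encodes pyrin, was lower in macrophages than in monocytes by -2.11 (SE 0.077), with medians of 37.8 and 153 CPM. Nlrc4 (-2.46, SE 0.54) and Pycard (-2.17, SE 0.35), the inflammasome adaptor, were lower in neutrophils than in monocytes, where 3 of the 12 were higher (25.5% of all genes, and so near it) and 6 lower (28.6%). Pycard was higher in macrophages rich in Arg1 by 0.84 (SE 0.097).

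Of 17 further genes of the interleukin-1 and interleukin-18 axis present in the files, 1 was higher (31.0% of all genes) and 9 lower (28.6%) in macrophages than in monocytes. Against DC 4 were higher (34.3%) and 10 lower (25.7%), and against fibroblasts 11 were higher (34.3%) and 5 lower (32.6%), the last near the share over all genes. Fibroblasts held the receptor and the alarmin: Il1r1, the signalling receptor of interleukin-1, was lower in macrophages by -6.94 (SE 0.16), with medians of 1.44 and 201 CPM, and Il33 by -7.78 (SE 0.23), with 0.597 and 136 CPM. Il1f9, which encodes interleukin-36 gamma, was at a median of 892 CPM in neutrophils and 1.28 CPM in macrophages (log2 -8.46, SE 0.29). Il18r1, a receptor chain of interleukin-18, was at 64.4 CPM in T cells and 0.756 CPM in macrophages (-5.99, SE 0.26), and Il18rap, the other chain, at 119 CPM in neutrophils and 3.71 CPM in macrophages (-5.0, SE 0.27).

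Of the interleukin-6 family list, 5 were higher (21.1% of all genes) and 2 lower (23.2%) in macrophages rich in Arg1, of 14 tested, and 8 higher (25.0%) and 1 lower (26.2%) in those rich in MHC class II. Lif was higher along Arg1 by 3.63 (SE 0.21), with medians of 76.1 and 4.48 CPM, and lower along MHC class II by -1.87 (SE 0.22), the same directions as Il6. Osmr, the receptor of oncostatin M, was at 109 CPM in fibroblasts and 0.39 CPM in macrophages (-7.7, SE 0.21). Of the TNF list, 2 were higher (31.0%) and 7 lower (28.6%) in macrophages than in monocytes of 15 tested, and 6 higher (21.1%) and 1 lower (23.2%) along Arg1, led by Tnfsf9 (1.72, SE 0.16), a costimulatory ligand. Tnfsf12, which encodes the cytokine TWEAK, was higher in macrophages than in neutrophils by 3.45 (SE 0.29) and than in DC by 2.27 (SE 0.1). Of 10 genes of the interleukin-10 axis, 3 were higher (31.0% of all genes, and so near it) and 6 lower (28.6%) in macrophages than in monocytes, and 10 higher than in fibroblasts (34.3%). Maf, a transcription factor known to act on Il10, was higher in macrophages than in DC by 3.39 (SE 0.14), with medians of 485 and 47.7 CPM, and than in neutrophils by 3.15 (SE 0.23), and lower along Arg1 by -0.37 (SE 0.062).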

How the data were processed

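Polyadenylated RNA of CD45-selected cells was measured in 3 libraries. The deposited tables hold counts of molecules for each cell, after correction of molecular identifiers by recursive substitution, per the file headers. The same headers give, for library 1, enhanced beads, intronic reads counted and pipeline 2.0b1, and for the others the original beads and pipeline 1.10, with GRCm38 and GENCODE M19 throughout. Intronic reads can add molecules in library 1, so differences were tested within tags, and correlations over tags are also given within libraries.

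Cells with fewer than 200 genes (122) were left out. No doublet caller was run, and leaving out cells that met more than 1 rule, or the 2% with most molecules in a tag, served as alternatives. The molecules of each class in a tag were added up where it had 20 cells or more. The quasi-likelihood test of edgeR (4.0.16, in R 4.3.3) was run on these sums with TMM factors, filterByExpr, the tag as a block and Benjamini-Hochberg adjustment over all genes, at 0.05. SE is the log2 difference over the root of F. DESeq2 1.42.0 was an alternative. Tags mark biological replicates per the labels' protocols, so the block pairs cells of the same replicate and p-values measure the spread between tags. Ratios were tested by exact sign-flip permutation over tags (scipy 1.17.1). CPM was computed from the counts, and positions came from GENCODE M21 for the same build.

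The members and lists were chosen with earlier results of these data known. The named genes were all 9 members, the counts of each list, examples from up to 3 list genes in each direction with the largest difference among those called with the same sign in every tag, and the 3 genes most alike to each member. Genotypes, times and the table of tags were not analysed here.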

Additional observations from a re-analysis of the deposited data

Results flagged for a closer look

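In 25 of 135 groups of 4 to 10 tags of 1 library, class and member, 1 tag lay far from the others by Dixon's criterion. That criterion flags about 1 in 20 groups by chance if values are normally distributed and groups independent. Members of 1 tag moved together and CPM can be skewed to high values, so whether 25 exceeds chance was not tested. Tag 7 of library 3 accounted for 10 of the 25 groups. In its macrophages Il1a was at 987 CPM (others 48.9 to 326), Il1b at 1600 (397 to 820), Il6 at 324 (9.63 to 89.7) and Tnf at 615 (134 to 311), from 488 cells. Its T cells held Il1a at 188 CPM (5.2 to 41.1) and Osm at 152 (63.2 to 72.7), its B cells Il6 at 396 (0 to 66.5) and Tnf at 461 (78.2 to 216), and its 24 fibroblasts Il1a at 31.1 (2.38 to 5.79) and Il1rn at 44.2 (5.68 to 15.1). Over all tags 43.8% of T and 50.3% of B cells also met the macrophage rule. The part of macrophage molecules in the T and B values here and in the next paragraph was not tested.

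In tag 10 of library 1, macrophages held Il1a at 796 CPM (63.2 to 368) and Il6 at 391 (12.9 to 116), and T cells, of which there were 20, Il6 at 139 (0 to 46.0). In tag 1 of library 2, macrophages held Il1b at 902 CPM (486 to 582) and Il6 at 153 (13.4 to 47.9), DC Il6 at 93.3 (0 to 6.48) and T cells Il1r2 at 292 (215 to 233). In tag 3 of library 2, 23 B cells held Il1a at 744 CPM (22.1 to 215) and Il6 at 183 (3.16 to 36.5), and in tag 2 B cells held Il1rn at 769 (93.9 to 239). In tag 10 of library 3, Il10 was at 47.4 CPM in DC (0 to 5.1) and 15.1 in fibroblasts (1.19 to 4.91). Single further values were Il6 at 51.5 CPM in DC of tag 12 of library 3 (0 to 4.81), Osm at 17.9 in fibroblasts of its tag 8 (3.27 to 5.79) and Tnf at 184 in monocytes of tag 12 of library 1 (94.2 to 121). All 25 were the highest value of their group, and the genotype and time of these tags are not given, beyond the run name F7_d3 of library 1, whose meaning is not stated.

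The 3972 cells that met no class rule entered no comparison and held all 9 members. Over all tags Il1b was at 1670 CPM, Il1a at 458, Il1rn at 372, Tnf at 245, Il1r2 at 218, Osm at 216, Il6 at 146, Il10 at 67.8 and Il18 at 20.1.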

How the results depend on the processing

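Of 1042 values of single members under alternatives, 872 kept call and direction, 39 lost the call, 12 gained it and 3 that were called reversed. Of those not called in either setting, 101 kept their sign and 15 changed it, in macrophages less neutrophils for Il18 (-0.54 to -0.01 in 6), Osm (-0.31 to -0.09 in 3) and Il1a (-0.31), and elsewhere at -0.02 to 0.01. The 3 called reversals were in macrophages less monocytes without library 1, with 3 tags left (the cause was not tested): with each library left out Il1a was -0.16 to 0.96, Il6 -0.83 to 1.44 and Osm -0.54 to 0.24. Counts of members moved by over 1.5 times in 8 of 232 cases. Without the tag as a replicate block, members called higher fell from 4 to 2 in macrophages less monocytes and from 4 to 0 in macrophages rich in resident genes. Members called lower went from 1 to 0 in macrophages less fibroblasts and from 2 to 0 in neutrophils less monocytes, where the filter on low counts, which takes the design, left out both Il6 and Il10 (4922 genes tested against 6135). Leaving out each library gave 2 to 4 members called higher and 3 to 5 lower in macrophages less monocytes, and 2 to 4 higher for resident genes. Without the 3 tags that stood apart (chosen after the data were seen), 2 members were called higher in macrophages less monocytes, since Il1a (0.55) and Il6 (0.79) were lost, and the other counts of members were the same, though Il10 (0.27) was lost and Il1rn (0.36) gained for Arg1.

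Of 70 ratio values 65 kept their call. Il1b to Il1r2 in macrophages less neutrophils lost it at 50 cells a sum (2.903), where tags were too few to pass, and without library 1 or library 3, and was 3.144 to 3.335 with each library left out. Il1b to Il1rn was -1.102 to -0.341 for macrophages less monocytes and -0.859 to 0.633 for macrophages less neutrophils, reversing at 0.633 without library 1. Sums of 50 cells could not be fitted for macrophages less fibroblasts (1 tag) and neutrophils less monocytes (2 tags), nor the latter without library 1 (1 tag).

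Counts over all genes moved in 15 of 232 cases. Without the block, higher and lower calls were 2026 and 2162 for MHC class II (3240 and 3403 with it), 628 and 584 for resident genes (1808 and 1750), and 1778 and 1622 for Arg1 (2788 and 3074). Without library 1 they were 558 and 458 for macrophages less monocytes (3975 and 3667), 2707 and 1408 less neutrophils (5259 and 2199), and 2946 higher less DC (4669). Without library 3 they were 1157 and 1139 for resident genes and 2004 lower for Arg1, and at 50 cells a sum 2734 were higher in macrophages less neutrophils. The share of higher calls moved by over 10 percentage points with no filter on low counts, to 65.9% for macrophages less monocytes, 35.7% for neutrophils less monocytes and 35.4% for resident genes. Shares after thinning to 1000 molecules left the interval of the 2000-molecule share in 52 of 63 cases, since a thinner cell shows fewer molecules. Neutrophil sums limit the depth of their comparisons.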
